A study of Homo sapiens with 6 samples.

Results

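Complement components and regulators were described in A549 cells, a long-established line from a human lung adenocarcinoma, through the levels of 9 listed genes: C3, C5, CFB, CFI, C1R, C1S, CD46, CD55 and CD59. Of these, 8 had a probe set of their own and were measured among 22395 genes. C1R shared its probe set with C1RL. The 9 genes were chosen from the complement system with their levels on these arrays already known, so their values are given as a description and no p-value is printed for them. The study set cells treated with 2 µM of Comp.2 and cells treated with 2 µM of Comp.4, each for 2 days, beside cells given vehicle, with 2 arrays in each of the 3 groups. The series title describes the code-named compounds as inhibitors of histone acetyltransferases that act in a sequence-specific way, and treatment began 24 h after plating. The labels do not say whether the 2 samples of a group were separate cultures, so the spread between them may be technical.

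Complement is a cascade of serum proteases and their substrates that marks and lyses foreign or damaged cells. C3 is the protein on which its activating routes meet: enzymes called convertases split it, and the fragment left on a surface starts the cleavage of C5, which releases an inflammatory peptide and begins the pore-forming attack complex. Most complement protein in blood comes from the liver, but lung epithelial cells are known to make part of the cascade locally, and nucleated cells carry membrane proteins that stop the cascade on their own surface.

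The upstream DNA of a gene that differed between the compounds is shown beside that of a gene that was not called. The compounds are described as sequence-specific, but no target sequence of theirs was searched. Whether these windows have a part in the differences was not tested. C5 was taken as the member with an upstream window in the RefSeq table that had the largest difference between the compounds, and CFB as the one with the smallest. Both were picked after their values were seen. The sequences are the 250 bases before the most upstream annotated start, 5′ to 3′ on the gene's strand, and capitals mark matches to the motifs listed after them. The C5 window lies at chr9:121074866-121075115 on the minus strand and the CFB window at chr6:31945845-31946094 on the plus strand of GRCh38.p14, as given by RefSeq.
C5: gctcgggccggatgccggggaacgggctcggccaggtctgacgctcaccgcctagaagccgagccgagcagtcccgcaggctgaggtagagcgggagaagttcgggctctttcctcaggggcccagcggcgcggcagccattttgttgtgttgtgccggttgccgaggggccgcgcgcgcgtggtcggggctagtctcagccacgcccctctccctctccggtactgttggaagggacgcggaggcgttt
CFB: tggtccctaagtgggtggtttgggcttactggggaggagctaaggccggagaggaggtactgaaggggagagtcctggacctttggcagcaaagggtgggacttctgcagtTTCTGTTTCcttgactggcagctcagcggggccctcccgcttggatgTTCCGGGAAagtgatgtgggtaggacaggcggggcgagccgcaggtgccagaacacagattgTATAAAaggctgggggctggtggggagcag

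On both strands, 7 motifs were searched, and the matches are descriptions of letters, not binding sites. They were the TATA box (TATAAA, in 11.2% of 27305 windows of this length), the CCAAT box (CCAAT, 33.0%), the GC box (GGGCGG, 42.2%), the core of the interferon-stimulated response element (GAAANNGAA, 7.07%), the core of a STAT site (TTCNNNGAA, 6.76%), a C/EBP core (TTGCNNAA, 9.12%) and the NF-κB consensus by name (5.07%). The CFB window held 1 TATA box, 1 interferon-stimulated response element core on the opposite strand and 1 STAT site core, and no 2 of them overlapped. The C5 window held none of the 7. Its G and C content was 69.2%, against 60.0% in the CFB window and a median of 57.6% over all windows. Windows were matched for 7 of the 9 listed genes (all but C3 and C1S), and none of the 7 held the NF-κB consensus.

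All arrays had medians between 4.55 and 4.56 on the log2 scale, so they had already been put on 1 scale by the authors. All 7 epithelial markers measured were brighter than the median gene over the 6 arrays, from CDH1, the E-cadherin gene (10.35 under Comp.2, 10.04 under Comp.4 and 10.30 in vehicle), down to MUC1 (5.72, 5.25 and 5.57), with 5.35 for the median gene. Of the markers of other cells, 1 of 7 fibroblast, 1 of 6 endothelial, 1 of 7 leukocyte and 1 of 5 hepatocyte genes were brighter than the median gene: COL1A1, CLDN5, CD14 and TTR. The leukocyte gene PTPRC lay between 2.68 and 2.71 in the 3 groups, and the hepatocyte gene ALB between 4.27 and 4.32. Brightness sets probe sets of different genes side by side and shows no transcript amounts. Mean levels over the markers of each of those 4 other cell types were between 4.12 and 4.64 on each array. None of the 32 markers passed the threshold in any comparison. At an unadjusted p under 0.05 limma had 5 higher and none lower under Comp.2, where 6.23% of all genes were higher and 4.94% lower, and 5 higher and 3 lower under Comp.4, where 8.64% were higher and 7.88% lower, each against vehicle. Between the compounds it had 2 higher and 3 lower, beside 7.52% and 7.45% of all genes. The 3 lower ones were all epithelial, and the higher ones were 1 endothelial and 1 hepatocyte marker. In bulk samples, fewer cells of a type and less RNA per cell cannot be told apart.

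Throughout, a level is a log2 RMA value of 1 probe set, a difference is between group means on that scale, and a gene is called where limma's adjusted p over all 22395 genes is under 0.05. Brightness differs between probe sets for reasons other than transcript amount, so levels are compared within a gene. Of the 8 measured members, 7 were brighter than the median gene, and CFI was dimmer.

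**Figure D1:**
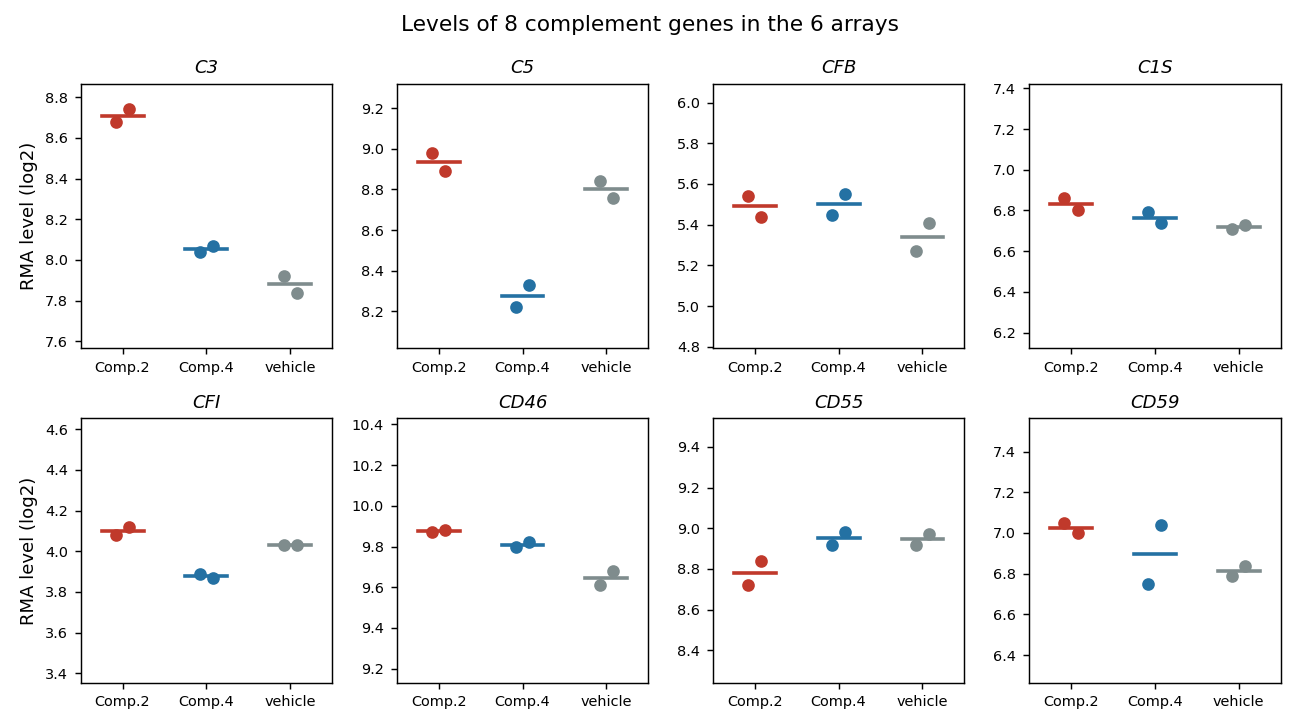
Log2 RMA level of each of 8 complement genes (vertical axes, all of the same height in log2 units) in the 2 arrays of Comp.2, Comp.4 and vehicle; points are arrays and bars are group means. The Comp.2 arrays stand above the others for C3, and the Comp.4 arrays stand below the others for C5.

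Under Comp.2, C3 rose 1.78-fold against vehicle, and it was the 1 member called. C3 stood at 8.68 and 8.74 in the Comp.2 arrays, against 7.92 and 7.84 in the vehicle arrays. The groups did not overlap, and the gap between their nearest arrays was 0.77, while replicates of this gene differed by at most 0.0765. The difference was 0.83 (SE 0.07, 95% interval 0.66 to 1.00). Of the 8 members, 1 was higher and none lower past the threshold, beside 0.134% of all genes called higher and 0.0625% called lower. At an unadjusted p under 0.05 there were 2 higher and none lower, beside 6.23% and 4.94% of all genes. Since the members were chosen with these values known, nothing is read from the counts.

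C5, the substrate that C3 cleavage leads to, was not called under Comp.2. It stood at 8.98 and 8.89 under Comp.2, against 8.84 and 8.76 in vehicle, a difference of 0.13 (95% interval -0.06 to 0.32).

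The members that activate the cascade lay close to vehicle. CFB, the factor B gene, encodes the protease part of the alternative convertase. It averaged 5.49 ± 0.0727 under Comp.2 and 5.34 ± 0.095 in vehicle (log2, SD, n = 2 each), a difference of 0.15 (95% interval -0.06 to 0.35). A second probe set, shared by CFB and the complement gene C2, had a difference of -0.08 with overlapping arrays, so the direction for CFB is unsettled. C1S encodes the protease of the first classical complex that cleaves C4 and C2. Its difference was 0.11 (95% interval -0.05 to 0.28), with 6.86 and 6.80 under Comp.2 against 6.71 and 6.73 in vehicle. C1R encodes the protease that activates C1S, and the 2 genes are neighbours in the RefSeq table of GRCh38.p14. The probe set that C1R shares with C1RL, a related protease gene, read 5.95 and 5.84 under Comp.2, against 5.69 and 5.74 in vehicle, and cannot be given to either gene.

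None of the 4 regulators was called under Comp.2, and those on the cell surface had differences of both signs. CD46, a membrane cofactor for the cleavage of C3b, stood at 9.87 and 9.88 under Comp.2, against 9.61 and 9.68 in vehicle, a difference of 0.23 (95% interval 0.06 to 0.39) that did not pass. With a variance trend in the fit, CD46 passed. That setting called 388 genes under Comp.2, against 44 in the fit reported. CD55, which speeds the decay of convertases, stood at 8.72 and 8.84 under Comp.2, against 8.92 and 8.97 in vehicle. It was the 1 member with a negative difference there, -0.16 (95% interval -0.35 to 0.02), and it did not pass.

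CD46 and CD55 lie in 1 cluster of complement regulator genes, with 3 protein-coding genes between them in RefSeq: CR2, CR1 and CR1L. Those 3 were dimmer than the median gene, and their differences under Comp.2 against vehicle were -0.04, -0.02 and 0.11.

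CD59, the inhibitor of the attack complex, averaged 7.02 ± 0.0297 under Comp.2 and 6.82 ± 0.0336 in vehicle (SD, n = 2 each), a difference of 0.21 (95% interval -0.05 to 0.46). A second probe set, shared by CD59 and C11orf91, had a difference of -0.14, so the direction for CD59 is unsettled. CFI, the soluble protease that inactivates C3b and C4b, had 4.08 and 4.12 under Comp.2, against 4.03 and 4.03 in vehicle, a difference of 0.07 (95% interval -0.09 to 0.23) at dim signal.

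In all, 7 of the 8 differences under Comp.2 were positive, with a median of 0.14 over the members, against 0.004 over all genes. The probe sets that CFB and CD59 share with other genes are not counted here, and both had negative differences. The arrays of Comp.2 and vehicle did not overlap for any of the 8, beside 43.7% of all genes; the choice of members used these values. C3 remained past the threshold in 5 of 13 other settings, with differences between 0.79 and 0.87 over all of them. It was not called when any 1 of the 6 arrays was left out or when the Comp.2 and vehicle arrays were fitted alone.

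**Figure D2:**
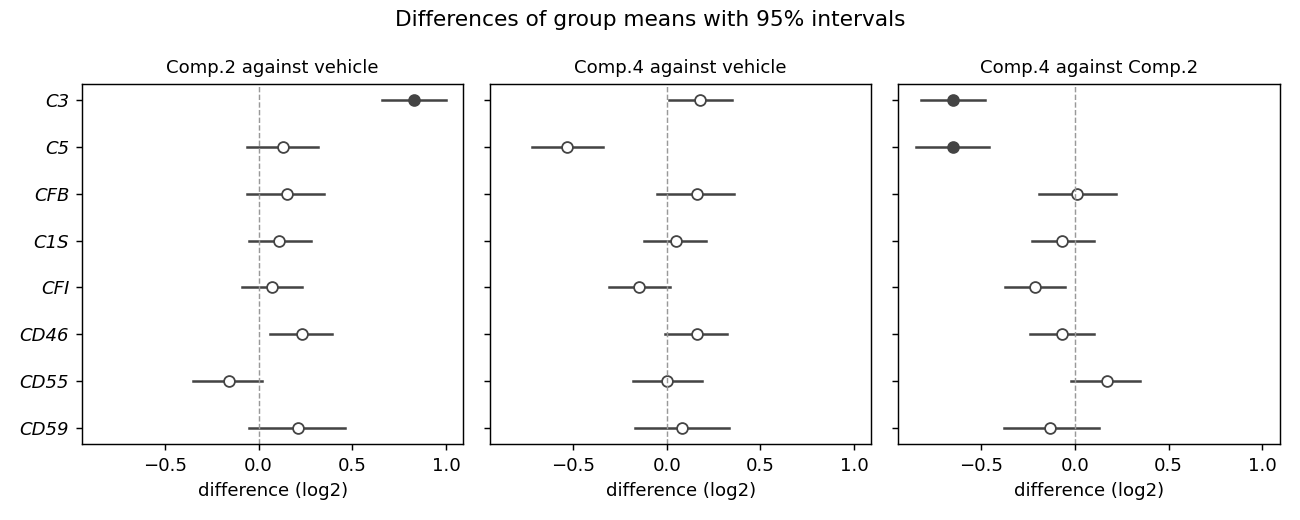
Difference of group means (log2, horizontal axis) of each complement gene in the 3 comparisons, with lines for the 95% interval of the moderated variance; filled points passed the threshold over all genes and open points did not. C3 is filled for Comp.2 against vehicle (0.83), and C3 and C5 are filled for Comp.4 against Comp.2 (both -0.65).

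Under Comp.4 no member was called against vehicle, and the largest difference was that of C5. C5 stood at 8.22 and 8.33 in the Comp.4 arrays, against 8.84 and 8.76 in the vehicle arrays. The groups did not overlap, and their nearest arrays were 0.43 apart, while replicates of C5 differed by at most 0.106. The difference was -0.53 (SE 0.08, 95% interval -0.72 to -0.34), which is 1.44-fold, and it did not pass the threshold. It passed where the prior variance followed brightness, and where the brighter genes alone were tested. In those settings 1226 and 839 genes were called in this comparison, against 33 in the fit reported. Of the 8 members, 0 passed, beside 0.0536% of all genes called higher and 0.0938% called lower, 0.147% together; at an unadjusted p under 0.05 limma had 1 member higher and 1 lower, beside 8.64% and 7.88% of all genes.

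C3 differed little from vehicle under Comp.4. It stood at 8.04 and 8.07 there, against 7.92 and 7.84 in vehicle, a difference of 0.18 (95% interval 0.01 to 0.35). Both compounds are compared with the same vehicle arrays, so these differences are not independent of those under Comp.2.

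The remaining members had differences under Comp.4 between -0.15, for CFI, and 0.16, for CFB and CD46. CFI stood at 3.89 and 3.87 under Comp.4, against 4.03 and 4.03 in vehicle (95% interval of the difference -0.31 to 0.02). CD46 stood at 9.80 and 9.82, against 9.61 and 9.68 in vehicle (95% interval -0.01 to 0.32). CFB averaged 5.50 ± 0.0738 under Comp.4 and 5.34 ± 0.095 in vehicle (SD, n = 2 each), with a 95% interval of the difference from -0.05 to 0.36. The probe set shared by CFB and C2 had -0.03 with overlapping arrays. CFI, CD46 and CFB did not pass. Their arrays did not overlap between the groups, as for 49.4% of all genes, and for CFB the nearest arrays were 0.04 apart.

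CD55 had the smallest difference of all under Comp.4, with 8.92 and 8.98, against 8.92 and 8.97 in vehicle (95% interval -0.18 to 0.19). C1S had 0.05 (95% interval -0.12 to 0.21). CD59 stood at 6.75 and 7.04 under Comp.4, against 6.79 and 6.84 in vehicle. The 2 Comp.4 arrays lay on either side of vehicle for CD59, and their gap of 0.294 was the widest between replicates of any member; the next was 0.134, for CFB in vehicle. Without Comp.4 replicate 1 the CD59 difference was 0.23, and without replicate 2 it was -0.07. The probe set shared by C1R and C1RL was split in the same way, with 5.63 and 5.93 under Comp.4, against 5.69 and 5.74 in vehicle. Over the 8 members 6 differences were positive and 2 negative, with a median of 0.06, against 0.018 over all genes. Probe sets shared with other genes are not in these counts. The arrays of Comp.4 and vehicle did not overlap for 6 of the 8 members, beside 49.4% of all genes.

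At 2 µM and day 2 for both, the compounds differed in C3 and C5, both 1.57-fold lower under Comp.4. C3 had 8.04 and 8.07 under Comp.4, against 8.68 and 8.74 under Comp.2, a difference of -0.65 (SE 0.07, 95% interval -0.82 to -0.48). C5 had 8.22 and 8.33 under Comp.4, against 8.98 and 8.89 under Comp.2, also a difference of -0.65 (SE 0.08, 95% interval -0.85 to -0.46). The arrays sat differently with respect to vehicle in these genes: the nearest Comp.2 array was 0.77 above vehicle for C3, and the nearest Comp.4 array was 0.43 below vehicle for C5. Of the 8 members 2 were lower past the threshold and none higher, beside 0.179% of all genes called lower and 0.192% called higher. At an unadjusted p under 0.05 there were 3 lower and none higher, beside 7.45% and 7.52% of all genes, and again nothing is read from the counts. Of the 7 epithelial markers, 4 had negative and 3 positive differences here, with a median of -0.21, and none passed: MUC1 had -0.47, CDH1 -0.32 and KRT18 -0.28 (adjusted p = 0.106, 0.125 and 0.171). Their part in the C3 and C5 differences was not tested.

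The other members did not pass between the compounds. CFI had -0.21 (95% interval -0.37 to -0.05), and CD55 was the member with the largest positive difference, 0.17 (95% interval -0.02 to 0.35). CD59 had -0.13 (95% interval -0.38 to 0.13), while the probe set it shares with C11orf91 had 0.23, so its direction is unsettled here too. CD46 and C1S each had -0.07 (95% intervals -0.24 to 0.10 and -0.23 to 0.10). CFB had 0.01 (95% interval -0.19 to 0.22). The widest of these intervals reaches -0.38, so they do not show that the compounds act alike on these genes. The median over the members was -0.10, against 0.008 over all genes, and the arrays did not overlap for 6 of 8, beside 45.3% of all genes. C3 and C5 were each past the threshold in 5 of 13 other settings. Neither was called without any 1 of the 6 arrays or with the compound arrays fitted alone.

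The genes whose pattern over the 6 arrays was most like that of C3 were sought among 11196 other genes brighter than the median gene. C3 was taken because its group means spanned the widest range of any member, 0.83. Likeness was the root mean square difference after each gene's own mean was taken off, and its median over the genes compared was 0.373. DDB2, which encodes a subunit that recognises UV-damaged DNA, was the closest at 0.0317. HSPA4L, a heat shock protein gene, followed at 0.0652, and CYFIP2, whose product acts on the actin cytoskeleton, at 0.0677. RPS27L, a gene related to that of a ribosomal protein, had 0.0789, and FAS, the death receptor gene, 0.0792.

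DDB2 had a difference of 0.85 under Comp.2 and 0.18 under Comp.4, each against vehicle, beside 0.83 and 0.18 for C3. Over the 5 genes the Comp.2 difference ran from 0.75 to 0.91, and the Comp.4 difference from 0.17 to 0.26. The 5 genes were picked for closeness to C3 on these same arrays, so their similar differences follow from that choice. Likeness was measured over only 6 arrays of 3 groups and is a description.

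**Figure D3:**
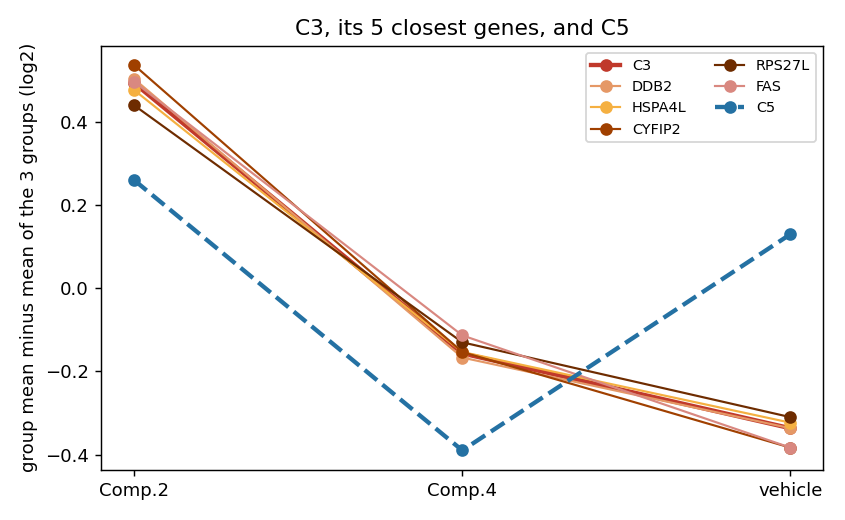
Group mean minus the mean of the 3 groups (log2, vertical axis) for C3, the 5 genes closest to it and C5, with lines joining the values of 1 gene. C3 and its closest genes are high under Comp.2 and lower under Comp.4 and in vehicle, while C5 (dashed) is lowest under Comp.4.

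Other genes of the complement system showed no called change. Of 46 further genes written as a list, 38 were measured, 7 of them brighter than the median gene, and none was called in any comparison, beside 0.196% of all genes for Comp.2 and 0.147% for Comp.4, each against vehicle, and 0.371% between the compounds. At an unadjusted p under 0.05 limma had 3 higher and 3 lower under Comp.2 (6.23% and 4.94% of all genes) and 4 higher and 1 lower under Comp.4 (8.64% and 7.88% of all genes), each against vehicle. Between the compounds it had 3 higher and none lower (7.52% and 7.45% of all genes). Their median differences were -0.02, 0.07 and 0.05 in the same order of comparisons.

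Of 12 measured genes of the classical and lectin start, FCN3, a ficolin gene of the lectin route, had the largest difference between the compounds: 5.91 and 5.92 under Comp.4, against 5.50 and 5.63 under Comp.2 (0.35, SE 0.08, adjusted p = 0.150). FCN1 had -0.02 there and C1RL 0.04. The 2 copies of C4 share their probe sets and were not measured singly. Of the 8 alternative and terminal genes, CFD encodes factor D, the protease that cleaves bound factor B; it had 0.18 under Comp.4 against vehicle (SE 0.08, adjusted p = 0.330) and -0.02 under Comp.2 (SE 0.08). C8G, of the attack complex, had 0.05 and -0.01 in the same comparisons.

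Of the 8 soluble regulators measured, CPN1 had the largest difference among the brighter ones. It encodes the catalytic subunit of carboxypeptidase N, which inactivates the peptides released from C3 and C5. CPN1 stood at 5.51 and 5.68 under Comp.4, against 6.28 and 6.09 in vehicle, a difference of -0.59 (SE 0.11) that did not pass (adjusted p = 0.0993), and under Comp.2 it had -0.33 (SE 0.11, adjusted p = 0.366). CPN1 passed under Comp.4 in the fit with a variance trend and in the fit of brighter genes. Those fits called 1226 and 839 genes there, against 33 in the fit reported. CLU, the clusterin gene, whose product binds the attack complex, had -0.02 under Comp.4 and -0.05 under Comp.2. All 10 receptor genes were dimmer than the median gene, the receptors of the C3 and C5 peptides among them, and none was called. The integrin subunit gene ITGAX, named after its values were seen, had 0.58 under Comp.2 and 0.56 under Comp.4 (SE 0.126 for both, adjusted p = 0.199 and 0.122).

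Cytokines, receptors and transcription factors known to act on complement genes were listed as inputs, and 26 of 28 were measured. None was called in any comparison, beside 0.196%, 0.147% and 0.371% of all genes under Comp.2, under Comp.4 and between the compounds. At an unadjusted p under 0.05 limma had 2 higher and 1 lower in each of the 3, where 6.23% to 8.64% of all genes were higher and 4.94% to 7.88% lower. IFNGR1, a subunit of the interferon-γ receptor, had 0.22 under Comp.2 (SE 0.08, adjusted p = 0.391) and 0.29 under Comp.4 (SE 0.08, adjusted p = 0.160). JAK2, a kinase of cytokine receptors, had -0.35 under Comp.2 (SE 0.08, adjusted p = 0.221), with 6.48 and 6.32, against 6.75 and 6.75 in vehicle. IRF1, an interferon-induced transcription factor gene, had 0.18 under Comp.2. RELA, the NF-κB subunit gene, had -0.25 under Comp.4 (SE 0.07, adjusted p = 0.182), and IFNAR2 had 0.21. Between the compounds JAK1 had -0.26, CEBPB 0.21 and JAK2 0.19, none of them past the threshold. The median over the inputs was 0.05 under Comp.2, 0.02 under Comp.4 and -0.03 between the compounds.

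Acute-phase genes, which like C3 are expressed in the liver, were listed too, and the list was not split by the direction of their response. Of 18 written, 14 were measured, of which 10 had a negative difference under Comp.2 and 10 under Comp.4, each against vehicle, and none was called, beside the same 0.196%, 0.147% and 0.371% of all genes. At an unadjusted p under 0.05 limma had 1 higher and 3 lower under Comp.2 (6.23% and 4.94% of all genes) and none higher and 2 lower under Comp.4 (8.64% and 7.88% of all genes), each against vehicle. Between the compounds it had 1 higher and none lower (7.52% and 7.45% of all genes). The 3 fibrinogen chain genes had negative differences under both compounds. FGG had -0.52 under Comp.2 (SE 0.10, adjusted p = 0.154) and FGB -0.39 (SE 0.07, adjusted p = 0.151), and FGA had -0.39 under Comp.4 (SE 0.08, adjusted p = 0.113). FGB stood at 9.36 and 9.33 under Comp.2, against 9.80 and 9.69 in vehicle. With a variance trend, FGB and FGG passed under Comp.2 and FGA and FGB under Comp.4. That setting called 388 and 1226 genes in these comparisons, against 44 and 33 in the fit reported. The median over the acute-phase genes was -0.11 under Comp.2, -0.03 under Comp.4 and 0.04 between the compounds.

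**Figure D4:**
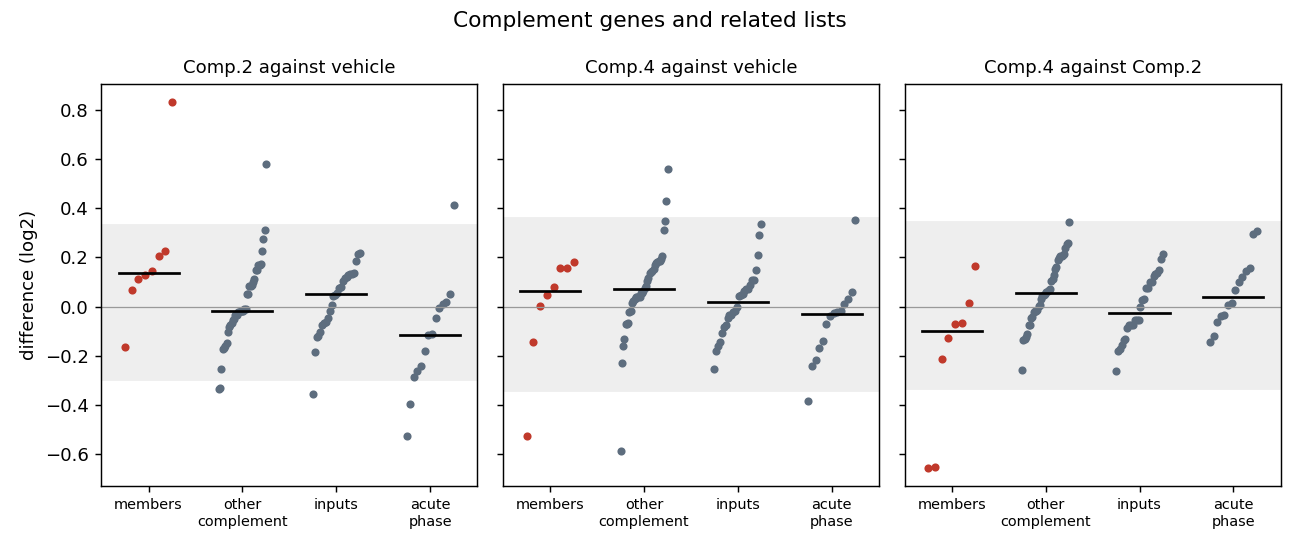
Differences (log2, vertical axis) of the 8 measured complement members (red) and of 3 lists: 38 other complement genes, 26 inputs and 14 acute-phase genes (grey), 1 point a gene, in the 3 comparisons. Black bars are list medians and the shaded band holds the central 95% of all genes, from -0.30 to 0.33 for Comp.2 against vehicle. C3 lies above the band there, and C5 lies below the band for Comp.4 against vehicle. Genes of the grey lists lie outside it as well, among them ITGAX, FGG and FGB under Comp.2 and ITGAX and CPN1 under Comp.4.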

How the data were processed

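RNA (100 ng per sample) from 6 samples of A549 cells was measured on Affymetrix arrays labelled with a whole-transcript kit. The deposited values are log2 levels that the authors summarised by RMA, per the submitters' processing notes. Those list Transcriptome Analysis Console 2.0 and Affymetrix Expression Console 1.3.1 as well; the genome build is not given in the sources used here. Scanner files and detection calls were not used here. RMA values have a background floor, which makes differences of dim probe sets too small, and a change shared by most genes cannot be seen after quantile normalization. The number of arrays limits the precision.

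Of 53617 probe sets, 23871 had 1 gene symbol in the platform annotation, 1842 had several and 27904 were unnamed here. The brightest probe set stood for each of 22395 genes. Group means were fitted over all 6 arrays together with limma 3.58.1 in R 4.3.3 (3 residual and 3.71 prior degrees of freedom), with Benjamini-Hochberg adjustment over all genes within a comparison and a threshold of 0.05, two-sided. An exact permutation test of 2 against 2 arrays cannot go below 0.333 and was not run. The fit was tested on simulated data. Genes named from the lists were those past the threshold and up to 3 brighter genes with the largest differences; for C3 and C5, the 2 nearest protein-coding genes on each side were named too, a choice made after their values were seen. The members and lists were chosen with earlier results of these data known. Alternatives were a variance trend, brighter genes only, protein-coding genes only, every single-symbol probe set, only the 2 groups compared, recentred arrays, the replicate block and leaving out each array.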

Additional observations from a re-analysis of the deposited data

Results flagged for a closer look

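C3 differed between the effects of the 2 compounds: the difference of Comp.4 minus Comp.2 was -0.65, and it passed limma's threshold over all genes. C5 had a value of -0.65 for the same difference, which also passed. The members were chosen with these values known. Neither gene was called with the compound arrays fitted alone or with the replicate block. Every Comp.4 array was below both vehicle arrays for C5 and every Comp.2 array above both, in the nearest case by 0.04. CFI had -0.21 for Comp.4 minus Comp.2 with the same arrangement of arrays; the difference did not pass, and the signal is dim.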

How the results depend on the processing

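Calls moved with the processing. The members' differences moved little, but in many of these settings they could not move. A variance trend, another set of genes, the 2 groups alone and the replicate block leave the difference of group means as it was. So does leaving out an array of a group not compared. The counts of unmoved differences therefore say little about how stable the differences are. Of 309 differences of single members under the alternatives, 293 moved by less than 1 replicate SD, 16 moved by more, and no called difference changed sign; 24 levels moved by at most 0.01 when arrays were recentred. Members called against vehicle under Comp.2 (1 in the fit reported) numbered 2 with a variance trend, 0 with only the 2 groups compared and 0 with the replicate block; under Comp.4 (0) there was 1 with a variance trend and 1 among brighter genes; between the compounds (2) there were 0 with only the 2 groups compared and 0 with the replicate block. All genes called numbered, for Comp.2 against vehicle (44), 388 with a variance trend, 233 among brighter genes, 14 with only the 2 groups and 15 with the replicate block. For Comp.4 against vehicle (33) they numbered 1226, 839, 0 and 4 in the same settings, and 0 with protein-coding genes only. For Comp.4 against Comp.2 (83) they numbered 1075, 716, 0 and 0, and 47 with protein-coding genes only. Where limma called 0, unadjusted counts were 1627 higher and 1540 lower (protein-coding) and 1999 and 1767 (2 groups) for Comp.4 against vehicle, and 1448 and 1400 (2 groups) and 1609 and 1518 (replicate block) for Comp.4 against Comp.2.

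Other complement genes called (0) numbered 2 with a variance trend (CPN1 and ITGAX) and 1 among brighter genes under Comp.4. Of all genes, 1226 and 839 were called in those 2 settings. Between the compounds there was 1 among brighter genes (FCN3), where 716 genes of all were called. Inputs and acute-phase genes called (0) numbered 2 with a variance trend and 2 among brighter genes under Comp.2 (FGB and FGG). They numbered 3 and 2 under Comp.4, and 1 with a variance trend between the compounds (JAK1). In the same settings 388 and 233 genes of all were called under Comp.2, and 1226 and 839 under Comp.4. Between the compounds 1075 were called with a variance trend. Leaving out 1 array at a time gave 0 members, 0 other complement genes and 0 inputs and acute-phase genes in every comparison, 0 to 14 genes of all for Comp.2 against vehicle, 0 to 0 for Comp.4 against vehicle and 0 to 1 for Comp.4 against Comp.2. The members' median ran from 0.09 to 0.19, from 0.02 to 0.10 and from -0.14 to -0.07 in these fits. They have fewer residual degrees of freedom, as do those with 2 groups or a block; the cause of the other shifts was not tested. The replicate numbers give no sign of pairing: deviations of same-numbered arrays correlated across genes at 0.029, 0.012 and -0.042 for the 3 pairs of groups. No member had a second probe set with 1 symbol, so that alternative gave no level.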

Other observations

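The 2 nearest protein-coding genes on each side of C3 and of C5 in the RefSeq table of GRCh38.p14 were looked up, a choice made after the values were seen. Beside C3 lie TNFSF14 and GPR108, and beyond them CD70 and TRIP10. CD70, which encodes a TNF family ligand of lymphocyte receptors, stood at 6.88 and 6.84 under Comp.2, 6.49 and 6.39 under Comp.4, and 6.00 and 5.98 in vehicle. It rose under Comp.2 by 0.87 (SE 0.07, limma adjusted p = 0.0209), higher in 2 of 2 arrays, and had 0.44 under Comp.4 against vehicle (SE 0.07, adjusted p = 0.0821). CD70 was called in 9 of 13 other settings under Comp.2, with differences of 0.85 to 0.89, and was not called without any 1 of the Comp.2 or vehicle arrays (adjusted p of 0.147 to 0.212). The other neighbours were not called, where 0.196% of all genes were called under Comp.2. Under Comp.2, TNFSF14, which lies between CD70 and C3, had 0.16 (SE 0.10, limma adjusted p = 0.573), GPR108 0.01 and TRIP10 0.14.

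None of the 4 neighbours of C5 was called, beside 0.196% of all genes under Comp.2, 0.147% under Comp.4 and 0.371% between the compounds. Under Comp.4 against vehicle, beside -0.53 for C5, CNTRL, a centrosome protein gene, had -0.25 (SE 0.07, adjusted p = 0.179), and RAB14 had -0.11. On the other side TRAF1, at dim signal, had 0.18 (SE 0.12, adjusted p = 0.481) and PHF19 0.25 (SE 0.09, adjusted p = 0.253).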
